A study of Homo sapiens with 6 samples.

Results

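The stress hormones GDF15, STC1 and STC2 were followed in K562 cells, a human erythroleukemia line grown from a patient with chronic myeloid leukemia. The members were the 3 of 60671 gene rows in the count files whose Ensembl identifier carries one of these symbols in GENCODE. They were chosen by their measured levels in EZH2i against DMSO, where *GDF15* and *STC2* were known to differ in opposite directions in every library, so this contrast is described for them without a test. The cells were a single clone carrying a doxycycline-inducible Flag-NLS-M.CviPI-Lamin-B1 fusion, in which a GpC methyltransferase is joined to Lamin B1. In 3 cultures they received 0.1% DMSO as vehicle, and in 3 they received 1 µM GSK343, an inhibitor of EZH2 (EZH2i), the catalytic subunit of Polycomb repressive complex 2 (PRC2). Both treatments lasted 72 h, and doxycycline at 1 µg/mL was present for the last 24 h in all 6 cultures, so that vehicle cells also expressed the fusion.

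GDF15 is a secreted, distant member of the TGF-beta family that is released by stressed cells and acts through the receptor GFRAL and its partner RET in the hindbrain, where it curbs appetite. Its gene is known to respond to EGR1 and to the ATF4 and CHOP arm of the integrated stress response, which cells switch on when protein synthesis is hampered. The stanniocalcins are secreted glycoproteins first described as calcium-regulating hormones of fish. In mammals STC2, also known to be induced through ATF4 and by hypoxia, binds and inhibits the protease PAPP-A, which frees insulin-like growth factors from IGFBP4, and STC1 is its hypoxia-responsive relative.

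On GRCh38, *GDF15* (ENSG00000130513) lies on the plus strand of chromosome 19 from 18374731 to 18389176 and *STC2* (ENSG00000113739) on the minus strand of chromosome 5 from 173314723 to 173328447. Sequencing was from the 3′ end, so reads are placed mostly in the last exon, which in the canonical transcript spans 891 bases for *GDF15* and 3527 for *STC2*. No annotated exon of another gene, on either strand, overlaps an exon of *GDF15*, *STC1* or *STC2*. The strand setting of the authors' counting is not given in the sources used here.

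Promoter sequence is shown because both *GDF15* and *STC2* are textbook ATF4 targets and yet differed in opposite directions. The 250 bases before the RefSeq start were searched on both strands in each gene. The same 2 windows are printed for both, with the matched motif letters in capitals. Both *GDF15* windows also lie within exons of other annotated *GDF15* transcripts, as do 22 of the 30 bases of the second *STC2* window with *STC2* exons.
GDF15, upstream window, chr19:18386034-18386063, plus strand of GRCh38.p14: agaccCCGCCCagctgtggtcATTGGagtg
STC2, upstream window, chr5:173328509-173328538, minus strand: ttgtcaaaagggccggggtctcggATTGGt
GDF15, window next to the start, chr19:18386117-18386146: aagtccggggacTATAAAggccggtccggc
STC2, window next to the start, chr5:173328426-173328455: ttccagggatatttgaggcaccatccctgc

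Both promoters held a CCAAT box on the reverse strand, beginning 103 bases before the start in *GDF15* and 100 bases before it in *STC2*. CCAAT occurs in 32.7% of the 27305 RefSeq promoter windows of this length. *GDF15* alone of the pair held a TATA box, TATAAA, 29 bases before the start (11.4% of promoters), and 2 GC boxes, GGGCGG, at 119 bases on the reverse strand and at 70 bases on the forward strand (41.3% of promoters). Neither window held the ATF4 composite element TGATGNAA (3.34% of promoters), the cAMP response element core TGACGT (7.16%) or the hypoxia response core ACGTG (18.3%). Among the ATF4 response genes listed below that had a RefSeq promoter, 3 of 26 held TGATGNAA in this window. These are matches of letters only.

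*GDF15* was read deeply in every library and *STC2* moderately, whereas *STC1* gave no read at all. Levels are in CPM, read counts per 1000000 reads on the tested genes of a library, with that library size multiplied by its TMM scaling factor. The 6 libraries held from 6327544 to 8987768 reads on genes. The share of all listed reads that fell on no annotated gene was 7.43% to 8.51% in 5 libraries and 12.7% in EZH2i replicate 3. The defining K562 genes were present, with all 8 of 8 listed erythroid markers, among them *GATA1*, *TAL1* and *KLF1*, tested and 0 called by edgeR or DESeq2 (1 at an unadjusted p under 0.05). Their summed level ranged from 809 to 913 CPM in DMSO and from 813 to 854 CPM in EZH2i. The 8 markers of other cell types, mainly *EPCAM*, summed to 99.0 to 101 CPM in DMSO and 89.7 to 93.2 CPM in EZH2i, where *MS4A1* had no read. In that list 1 gene was called, *COL1A1* at 1.57 ± 0.507 and 6.04 ± 1.91 CPM (SD over 3 libraries each; edgeR log2 difference 1.91, adjusted p = 0.00424). The part of these differences in the results below was not tested.

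*GDF15* was higher in each EZH2i library than in any DMSO library. Its reads, in the order of replicates 1 to 3, were 4668, 4864 and 5579 with DMSO, against 5683, 8617 and 6991 with EZH2i. Scaled by library size and TMM factor to CPM, these were 730, 577 and 633 CPM in DMSO and 770, 1087 and 1001 CPM in EZH2i. The groups did not overlap, but DMSO replicate 1 and EZH2i replicate 1 came within 39.7 CPM of each other. The means were 647 ± 77.2 CPM in DMSO and 953 ± 164 CPM in EZH2i, as mean ± SD of 3 libraries. The log2 fold change fitted by edgeR was 0.56 with a standard error of 0.128, which is 1.47-fold, or 1.35-fold to 1.61-fold over 1 standard error to either side. In RNA from whole cultures, a change in the number of cells making a transcript and a change in its amount per cell cannot be told apart.

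*STC2* went the other way, with every EZH2i library below every DMSO library. In the same order its reads were 191, 153 and 273 with DMSO, against 111, 93 and 106 with EZH2i. In CPM the levels were 29.9, 18.2 and 31.0 in DMSO and 15.0, 11.7 and 15.2 in EZH2i. DMSO replicate 2 stood well below the other DMSO libraries and only 2.98 CPM above the highest EZH2i library. The means were 26.3 ± 7.10 CPM in DMSO and 14.0 ± 1.95 CPM in EZH2i, as mean ± SD of 3 libraries. The fitted log2 fold change was -0.91 with a standard error of 0.194, a level in DMSO 1.88-fold that in EZH2i.

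**Figure D1:**
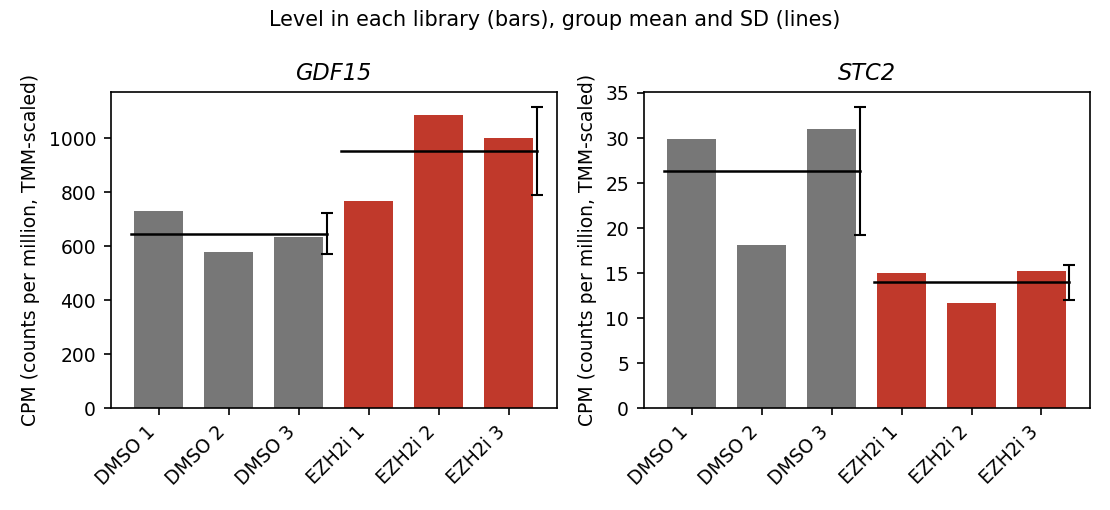
Level of GDF15 (left) and STC2 (right) in CPM, on axes starting at 0, in the 3 DMSO (grey) and 3 EZH2i (red) libraries, with horizontal lines at the group means and vertical bars of 1 SD. The lowest EZH2i library of GDF15 (770 CPM) is just above the highest DMSO library (730 CPM), and the highest EZH2i library of STC2 (15.2 CPM) is below the lowest DMSO library (18.2 CPM).

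*STC1* (ENSG00000159167), on the minus strand of chromosome 8 from 23841929 to 23854806 with a last exon of 3112 bases, had 0 reads in all 6 libraries. With 46139822 reads on genes in total, a count of 0 allows up to 3 reads, or 0.0650 CPM, and up to 0.340 to 0.469 CPM in a single library. This limit covers counting error only. *STC1* was therefore not detectable at this depth in either treatment and was not tested.

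For the 2 detected hormones the levels of the groups did not overlap, as for 24.5% of the 12364 genes tested, with EZH2i above for 13.3% and below for 11.1%. As the members were picked for this contrast, nothing is read from this. By edgeR's quasi-likelihood test, which is used below for genes other than the members (called where the Benjamini-Hochberg adjusted p is under 0.05), 3.34% of genes were called higher and 0.922% lower, and 4.26% in all. In size of log2 fold change regardless of sign, *STC2* ranked 395 and *GDF15* ranked 1175 among the tested genes.

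Taken library by library, all 9 pairings of an EZH2i with a DMSO library had more *GDF15* in EZH2i, by ratios from 1.05 to 1.88. All 9 pairings had less *STC2* in EZH2i, with ratios from 0.379 to 0.836. These pairings share libraries and are not 9 independent comparisons. The largest *GDF15* level and the smallest *STC2* level were both in EZH2i replicate 2. In DMSO the lowest level of each gene was in replicate 2, so that within vehicle cultures that library was low for both.

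The count of *GDF15* reads per *STC2* read needs no scaling between libraries, since both come from the same one. It tracks how far the pair moved apart and is not a ratio of molecules, as the genes may be captured with different efficiency. In DMSO replicates 1, 2 and 3 there were 24.4, 31.8 and 20.4 *GDF15* reads per *STC2* read. In EZH2i replicates 1, 2 and 3 there were 51.2, 92.7 and 66.0. Every EZH2i library thus lay above every DMSO library. *STC2* made up 4.67% of the reads of the pair in DMSO replicate 3 (95% Wilson interval 4.15% to 5.24%) and 1.07% in EZH2i replicate 2 (0.872% to 1.31%), the extremes of the series. The members were picked for moving apart, so the separation of the groups in this ratio is no further result. The 2 libraries nearest each other across the groups were DMSO replicate 2 at 3.05% (2.61% to 3.56%) and EZH2i replicate 1 at 1.92% (1.59% to 2.30%). The intervals cover counting error only, since amplified reads are not independent molecules. On the log2 scale the ratio was 4.65 ± 0.321 in DMSO and 6.09 ± 0.429 in EZH2i, as mean ± SD of 3 libraries, a difference of 1.43, or 2.70-fold.

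**Figure D2:**
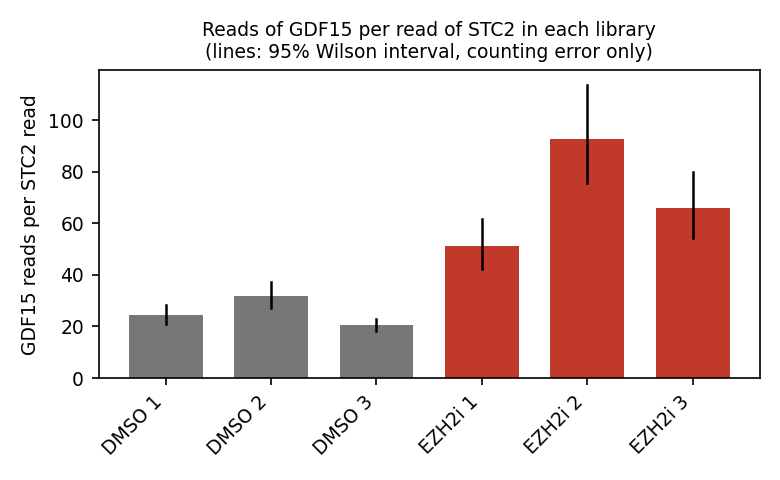
Reads of GDF15 for each read of STC2 (vertical axis, from 0) in the 3 DMSO (grey) and 3 EZH2i (red) libraries, with black lines for the 95% Wilson interval of the share converted to this ratio. The DMSO libraries lie between 20.4 and 31.8 and the EZH2i libraries between 51.2 and 92.7.

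The spread between cultures is given here beside that from counting. Counting alone gives *GDF15* a coefficient of variation of 1.08% to 1.46% per library, while the measured values were 11.9% in DMSO and 17.2% in EZH2i. Among the 113 genes within 0.5 log2 CPM of its average level, the median was 6.51% in DMSO and 8.43% in EZH2i, so *GDF15* varied more than was typical at its level in both groups. For *STC2* counting gives 6.05% to 8.08% in the DMSO libraries and 9.49% to 10.4% in the EZH2i libraries, and the measured values were 27.0% in DMSO and 14.0% in EZH2i, the latter close to counting error. The median of the 2119 genes at its level was 10.9% and 11.8%. The spread of *STC2* among vehicle cultures, set by replicate 2, was thus the widest of the 4 values.

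The directions held under each of 13 other ways of processing, 6 of which each left out a library. As the groups overlapped for neither gene, leaving out a library could not be expected to turn a sign. Those 6 fits show only how far the size moved. The log2 fold change of *GDF15* ran from 0.45, without EZH2i replicate 2, to 0.69, without EZH2i replicate 1. That of *STC2* ran from -1.12, without DMSO replicate 2, to -0.77, without DMSO replicate 3. Without EZH2i replicate 3, the library with the largest share of reads on no gene, the values were 0.52 for *GDF15* and -0.97 for *STC2*.

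**Figure D3:**
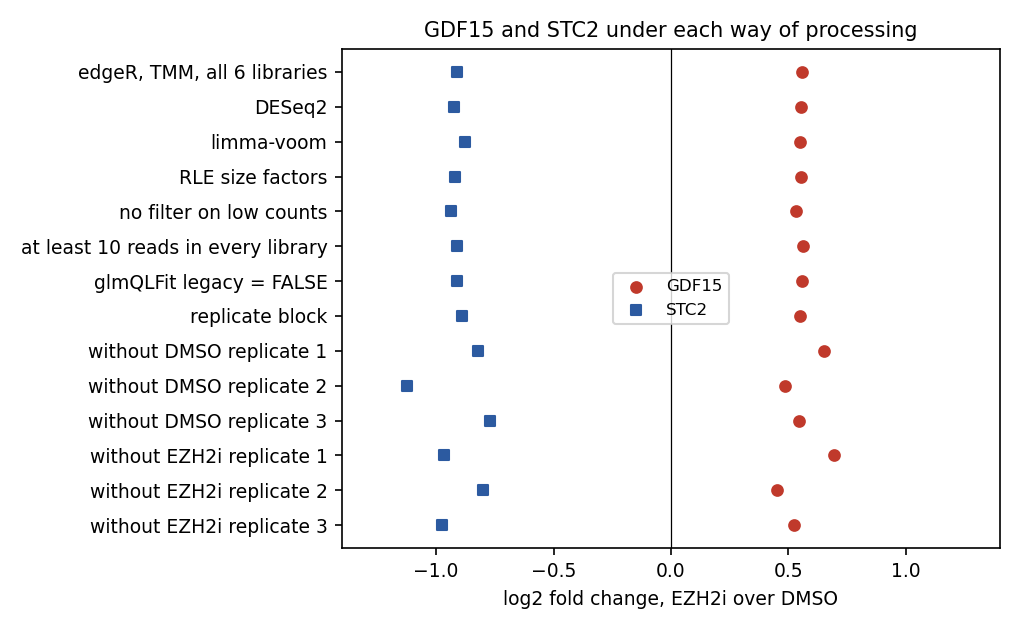
Log2 fold change of EZH2i over DMSO (horizontal axis) for GDF15 (red circles) and STC2 (blue squares) in the fit reported here (top row) and in 13 alternatives, one per row. GDF15 stays to the right of 0 in each, between 0.45 and 0.69, and STC2 to the left, between -1.12 and -0.77.

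The genes next to the members were looked at because PRC2 acts over chromatin domains. On either side of *GDF15* are *PGPEP1*, a pyroglutamyl peptidase 4.78 kb away, and *LRRC25*, 1.96 kb away, and farther out *LSM4* and *SSBP4*. None was called. On the log2 scale *PGPEP1* stood at 0.13 (edgeR adjusted p = 0.533), *LSM4* at -0.20 (edgeR adjusted p = 0.353) and *SSBP4* at 0.02 (edgeR adjusted p = 0.956). Exons of *SSBP4* overlap those of *ISYNA1* on the other strand. *LRRC25* had at most 6 reads in any library and was not tested. The microRNA gene *MIR3189*, inside an intron of *GDF15*, had 0 reads, although libraries primed on poly(A) tails do not capture mature microRNAs.

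Around *STC2*, the closest coding gene is the heart transcription factor gene *NKX2-5*, 79.4 kb away, which had 1 read in the whole series. *BNIP1* (log2 scale, -0.20, edgeR adjusted p = 0.595) and *BOD1* (-0.14, adjusted p = 0.668) were not called either, and *BNIP1* is overlapped by an unnamed gene on the other strand. *CPEB4*, which regulates poly(A) tails, lies 559.9 kb away and stood at 0.38 (edgeR adjusted p = 0.0776), with no overlap between the groups. Leaving out single libraries moved its adjusted p from 0.0387, without EZH2i replicate 1, to 0.296, without DMSO replicate 2. Near the unread *STC1*, *NKX2-6*, *ADAM28* and *ADAMDEC1* had 0 reads in all libraries.

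Of the receptor and processing genes of GDF15, *GFRAL* had 0 reads in all 6 libraries and *RET* 1 read, so the hormone's own receptor was not detectable at this depth, with the same limit of 0.0650 CPM as *STC1*. *FURIN*, a protease that cleaves pro-hormones at basic sites, was at 103 ± 12.7 CPM in DMSO and 104 ± 11.1 CPM in EZH2i (SD over 3 libraries each; edgeR log2 difference 0.02, adjusted p = 0.952). The convertases *PCSK6* (-0.01) and *PCSK7* (-0.22) and *MMP14* (0.01), a membrane protease, were not called, and *PCSK5* had 0 reads. Exons of *PCSK6* overlap *SNRPA1* on the same strand and those of *PCSK7* overlap *TAGLN* on the other, so these counts are uncertain. Of 7 listed genes 4 were tested and 0 called by edgeR or DESeq2 (0 at an unadjusted p under 0.05).

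In the IGF axis on which STC2 acts, *PAPPA* had 3 reads in the whole series and *PAPPA2* at most 3 in any library, so the target proteases of STC2 were barely read. Of 15 listed genes 7 were tested, with 2 called higher and 1 lower and a median log2 fold change of 0.33 against -0.00021 over all genes tested. Without DMSO replicate 2 that median was 0.0570. *IGFBP4*, the binding protein that PAPP-A cleaves, rose from 11.8 ± 1.83 to 18.6 ± 2.55 CPM (SD over 3 libraries each; edgeR log2 difference 0.65, adjusted p = 0.0414). *IGF1R*, the receptor of IGF1, rose by 0.87 on that scale (edgeR adjusted p = 0.0414), and the growth factor gene *IGF1*, which shares exon sequence with *HELLPAR* on the other strand, fell by 0.43 (edgeR adjusted p = 0.0297). *IGF1R* was called in 0 of the 6 leave-one-out fits, with edgeR's adjusted p from 0.0679 to 0.123, and *IGFBP4* and *IGF1* in 1, without EZH2i replicate 1. *INSR* (0.75; edgeR adjusted p = 0.136), *IRS1* (0.33), *IRS2* (-0.06) and *IGF2R* (-0.14) were not called, and the other binding protein genes and *IGF2* had at most 12 reads in any library. Exons of *IGF2R* overlap *CHP1P2* on the same strand and those of *IRS2* an unnamed gene on the other.

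Among regulators known to act on the hormone genes, *EGR1*, an immediate early factor that can activate *GDF15*, was at 103 ± 34.6 CPM in DMSO and 172 ± 34.1 CPM in EZH2i (SD over 3 libraries each; edgeR log2 difference 0.74, adjusted p = 0.0334). Its groups overlapped, as DMSO replicate 3 had more *EGR1* reads (1231) than EZH2i replicate 2 (1063), and the adjusted p was 0.136, 0.157 and 0.0838 without DMSO replicate 1, DMSO replicate 2 and EZH2i replicate 3 (edgeR) and 0.207 with DESeq2. *EPAS1*, which encodes a hypoxia-inducible factor, rose by 0.44 (edgeR adjusted p = 0.0448), which became 0.0577 to 0.158 when single libraries were left out and 0.0561 without a filter on low counts. *ATF4*, the factor both hormone genes are known to answer to, was at 584 ± 36.0 CPM and 561 ± 139 CPM (SD over 3 libraries each; edgeR log2 difference -0.06, adjusted p = 0.862). Its sign changed without EZH2i replicate 2 (0.0025) or 3 (0.07). *DDIT3*, which encodes CHOP and shares exon sequence with ENSG00000285133 on its own strand and with *MARS1* and *MBD6* on the other, was lower in all EZH2i libraries without a call (-0.51, edgeR adjusted p = 0.0864; 0.0381 without EZH2i replicate 1 and 0.0222 without a filter on low counts). *ATF3* (-0.05), *NFE2L2* (-0.08), *HIF1A* (0.37), *ARNT* (-0.10), *SP1* (-0.17) and *CREB1* (0.0035) were not called, and *KLF4* had at most 3 reads. Exons of *HIF1A* and *NFE2L2* overlap those of genes on both strands and exons of *CREB1* those of a gene on the other strand, so their counts are uncertain. All these values are of RNA, and the level and activity of the regulator proteins were not measured here.

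The ATF4 response list, read without *GDF15*, *STC1* and *STC2*, contained 34 genes, of which 32 were tested, 6 were called lower and 0 higher. The median log2 fold change was -0.26, against -0.00021 over all genes tested, with 31 of 32 genes below 0. *STC2* had the same sign as 31 of these genes and *GDF15* the same sign as 1 of them. The members were picked by their signs, so nothing is read from this match. The called genes were *ATF5* (-1.47), *TRIB3* (-0.73), *INHBE* (-0.71), *CEBPG* (-0.68), *DDIT4* (-0.52) and *MTHFD2* (-0.49), with edgeR's adjusted p from 4.77e-06 to 0.0444. *ATF5* and *MTHFD2* share exon sequence with genes on the other strand, and *ATF5* also with *MIR4751* on its own strand. *STC2*, at -0.91, lay between *ATF5* and *TRIB3*. *ATF5* and *TRIB3* were called in all 6 leave-one-out fits, and without DMSO replicate 1 they were the only ones of the list. The 19 ER chaperone genes, a neighbouring branch of the stress response, also leaned down, with 16 of 19 below 0 and a median of -0.13. Of these, 0 were called by edgeR or DESeq2 (1 at an unadjusted p under 0.05).

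The list of genes induced by low oxygen, as the stanniocalcin genes are known to be, had 1 of 21 tested genes called, *DDIT4* as lower, and a median of -0.05, which was 0.0307 without DMSO replicate 3, 0.0386 without EZH2i replicate 1 and -0.14 without EZH2i replicate 2. That call was lost without DMSO replicate 1, DMSO replicate 3 or EZH2i replicate 3 (edgeR adjusted p = 0.109, 0.0586 and 0.0572). The list had 2 called genes without DMSO replicate 2, without EZH2i replicate 1, with limma-voom, with the other glmQLFit option and with the replicate block, and 3 without a filter on low counts. Its largest value, *NDRG1* at 1.44 (edgeR adjusted p = 0.0565), was not called, and its groups overlapped.

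**Figure D4:**
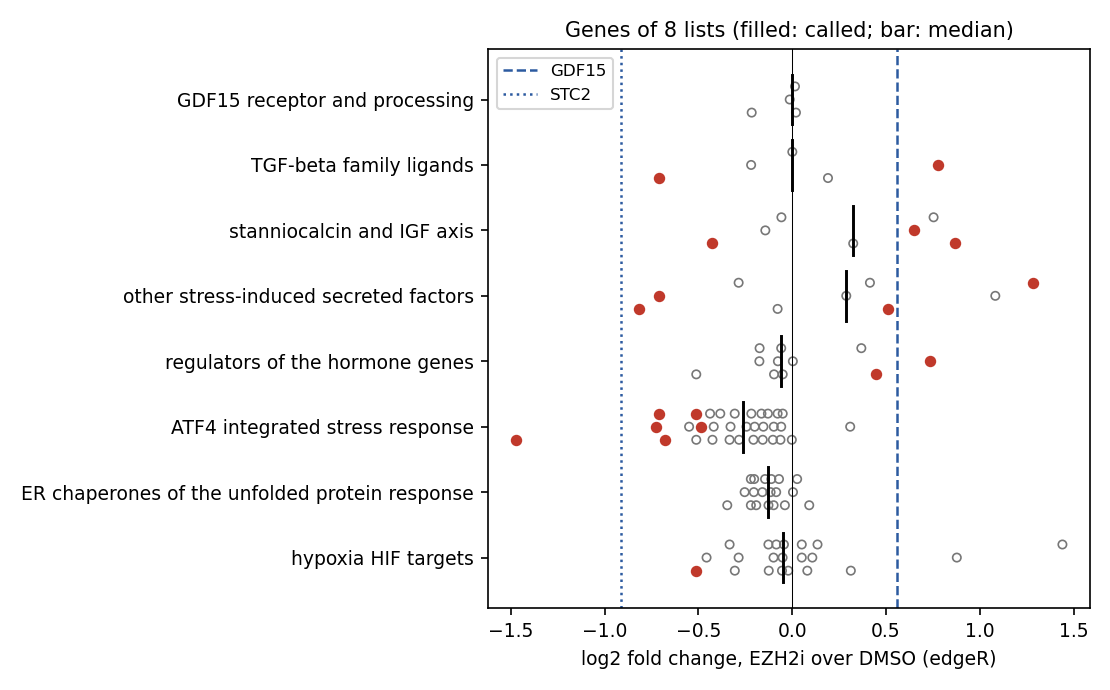
Log2 fold change of EZH2i over DMSO (horizontal axis) for each tested gene of 8 lists (rows), with filled red points for genes at an adjusted p under 0.05 in edgeR's test, open points for the others and a black bar at each list's median. The dashed line marks GDF15 at 0.56 and the dotted line STC2 at -0.91; the ATF4 list sits to the left of 0 except for 1 gene.

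Other secreted factors and family members of the hormones moved in both directions. Of 14 listed stress-induced secreted factors 9 were tested, with 2 called higher, 2 lower and a median of 0.29, which was -0.0474 without EZH2i replicate 3. *VGF*, a neuropeptide precursor, rose from 6.06 ± 0.767 to 14.8 ± 3.46 CPM (SD over 3 libraries each; edgeR log2 difference 1.28, adjusted p = 0.00232) and *AREG*, an EGF receptor ligand, rose by 0.51 (edgeR adjusted p = 0.0213). *EREG*, a further EGF receptor ligand, fell by 0.82 (edgeR adjusted p = 0.0237) and *INHBE*, an activin subunit gene of the TGF-beta family to which GDF15 belongs, fell by 0.71 (edgeR adjusted p = 0.0444). Of 32 TGF-beta family ligand genes 5 were tested, with a median of 0.00065 (0.18, 0.15 and 0.15 without DMSO replicate 1, DMSO replicate 3 and EZH2i replicate 3), and *TGFB1* was the only one called higher (0.78, edgeR adjusted p = 0.0187; 0.114 and 0.0845 without DMSO replicates 2 and 3) and *INHBE* the only one called lower, each sharing exon sequence with a gene on the other strand. The call of *VGF* held in all 6 leave-one-out fits. *EREG* lost its call without DMSO replicate 1 or 3 (edgeR adjusted p = 0.103 and 0.12), and *AREG* and *INHBE* kept theirs only without EZH2i replicate 1.

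Profiles most like those of the 2 detected hormones were sought among the tested genes as the smallest root mean square difference, over the 6 libraries, of log2 CPM centred on each gene's mean. For *GDF15* these were *BMP2K*, a protein kinase gene overlapped by *PAQR3* exons on the other strand (difference 0.0676 log2 units, against a median of 0.386 over 12363 genes), *FNDC10* (0.0927), *AKAP7* (0.102) and *PLEKHN1* (0.105). In *BMP2K* as in *GDF15*, EZH2i replicate 1 was the lowest EZH2i library at 126 CPM, with 162 and 158 CPM in the other two, and DMSO ran from 87.9 to 102 CPM. For *STC2* they were *INHBE* (0.172, against a median of 0.545), *EREG* (0.188), the unnamed gene ENSG00000261211 (0.196) and *HES1* (0.210), a Notch target gene. *INHBE* had, in the order of replicates 1 to 3, 13.6, 11.0 and 15.3 CPM with DMSO, against 8.94, 7.44 and 8.02 CPM with EZH2i, so that it shared with *STC2* both the low DMSO replicate 2 and the lowest level in EZH2i replicate 2. Of these genes *AKAP7*, *PLEKHN1* and ENSG00000261211 are also overlapped on the other strand. Likeness over 6 libraries is a description.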

How the data were processed

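Three-prime mRNA libraries (QuantSeq FWD) of 3 DMSO and 3 EZH2i cultures were used. The authors followed the kit's recommended pipeline on hg38. STAR 2.6.0c and HTSeq 0.11.2 are named in the submitters' processing notes, and the strand setting is not given in the sources used here. The deposited values are raw read counts per Ensembl gene and library. The authors' deposited table of their DESeq2 comparison (mean counts, fold changes, p-values) was not used.

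The rows naming no gene were left out; genes held 63.6% to 67.9% of listed reads, 6327544 to 8987768 per library. The quasi-likelihood test of edgeR 4.0.16 (R 4.3.3) was run across genes (TMM, filterByExpr with a minimum count of 10, glmQLFit, glmQLFTest, two-sided, Benjamini-Hochberg over all 12364 genes, threshold 0.05), which takes its spread from 3 separate cultures a group. The standard error is the log2 fold change divided by the square root of F. An exact permutation test of 3 against 3 cannot go below 0.1. Replicate pairs differed by 4.56 to 12.7 in chi-square per degree of freedom, so none was a copy. Symbols and exons are from GENCODE 44 (60401 identifiers matched) and promoters from RefSeq (GRCh38.p14). Log2 CPM for likeness used edgeR's default prior count.

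The members and gene lists were chosen with earlier results of these data known. Named were the members, the 2 nearest coding genes on each side and overlapping genes, every tested gene of the receptor, IGF and regulator lists, up to 6 called genes (smallest p) of the other lists, and the 4 most similar profiles; 1 whole gene list and some single genes under this rule are not reported here, so the lists described are not all those tested. *COL1A1*, *HBEGF*, *NDRG1* and untested list genes were named after their values were seen. DESeq2 1.42.0, limma-voom (limma 3.58.1), RLE factors, other filters, another glmQLFit option, a replicate block and leaving out each library were the alternatives. The scripts were tested on simulated data.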

Additional observations from a re-analysis of the deposited data

How the results depend on the processing

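*GDF15*, *STC2* and their difference kept their signs in all 13 alternatives and moved by less than the SD between replicates. With groups that did not overlap, the fits lacking a library could not be expected to turn these signs. *STC1*, with 0 reads, gave no value in any. Without one library each, *GDF15* ran from 0.45 to 0.69, *STC2* from -1.12 to -0.77 and the difference of their log2 fold changes (1.47) from 1.25 to 1.66. Called genes numbered 527 (413 higher, 114 lower), 928 without a filter on low counts (579 higher, 349 lower; 62.4% higher in place of 78.4%) and 209 to 536 across the fits that each lacked a library; lower calls there went from 20 to 124. Leaving out DMSO replicate 1, 2 or 3 gave 213, 209 and 240; the cause was not tested.

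Among called genes given by name, leaving *COL1A1* aside as it was not followed gene by gene, *VGF*, *ATF5* and *TRIB3* were called in each fit that lacked a library, the others lost their call in at least 1, and none changed sign. Called genes of the ATF4 list numbered 11 without a filter and 2 without DMSO replicate 1 in place of 6. No pairing of libraries by replicate number was seen (correlations of deviations -0.0511, -0.0175 and -0.0170), though these values cannot exclude one. With the replicate block 599 genes were called, *GDF15* had 0.55 and *STC2* -0.89, and *IGF1R* and *EPAS1* were no longer called. With limma-voom *INHBE* and *IGFBP4*, with at least 10 reads in every library *INHBE*, without a filter *EPAS1*, and with DESeq2 *IGF1R* and *EGR1*, were not past the threshold.

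Uncalled values near 0 changed sign. *CREB1* was -0.0037 with DESeq2, -0.00374 with RLE factors and -0.0200 without a filter; without a filter *FURIN* was -0.0030, *SSBP4* -0.00416 and *MMP14* -0.00379, and *MMP14* was -0.0183 with limma-voom. Across the fits that lacked a library, the ranges were *SSBP4* -0.0875 to 0.17, *FURIN* -0.0557 to 0.12, *PCSK6* -0.24 to 0.16, *MMP14* -0.32 to 0.29, *IGF2R* -0.31 to 0.00764, *IRS2* -0.18 to 0.0939, *ATF4* -0.27 to 0.0738, *ATF3* -0.19 to 0.0600, *NFE2L2* -0.13 to 0.00623, *CREB1* -0.0616 to 0.0615. Depth limits *STC2*, with 93 to 273 reads a library, more than *GDF15*.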

Other observations

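*EREG* and *AREG*, which encode ligands of the same EGF receptor, are next to each other on chromosome 4 of GRCh38 (74365145 to 74388749 and 74445136 to 74455005, both on the plus strand), with 56.4 kb and 0 protein-coding genes between them, yet their called changes had opposite signs. Replicate by replicate, *EREG* had 156, 135 and 235 reads with DMSO, against 79, 102 and 101 with EZH2i. *AREG* had 272, 295 and 376 in DMSO and 404, 458 and 411 in EZH2i. The levels of the groups overlapped for neither gene. The difference between the 2 changes was not tested, and the pair was chosen after its values were seen.

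*HBEGF*, another ligand of that receptor, was at 2.03 ± 0.360 CPM in DMSO and 4.32 ± 0.618 CPM in EZH2i (SD over 3 libraries each; edgeR log2 difference 1.08, adjusted p = 0.0580), with no overlap between the groups and no call.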
